A study of Rattus norvegicus with 64 samples.

Results

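Mitochondrial cytochrome and ATP synthase mRNAs were followed in rat liver and kidney as 6 transcripts encoded by the mitochondrial genome. They are Co1 (ENSRNOT00000050156.3, 1545 nt), Co2 (ENSRNOT00000043693.3, 684 nt), Co3 (ENSRNOT00000049683.3, 784 nt), Atp8 (ENSRNOT00000046201.3, the shortest), Atp6 (ENSRNOT00000046108.3, 681 nt) and Cytb (ENSRNOT00000042098.3, 1143 nt). They were chosen by transcript identifier, not by any measured value, and are 6 of the 31715 transcripts in each table. The deposited tables pair no identifier with a gene name, so the names are those of the set's definition, whose lengths equal the lengths in the files.

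The study dosed Sprague Dawley rats once with bromobenzene at 0.4 g/kg, an organic solvent that liver enzymes turn into reactive products and that injures liver and kidney. Control rats received saline (2%) as the vehicle. Liver and kidney were collected 5 h or 10 h later from 32 rats, which gave 8 groups of 8 libraries: vehicle or bromobenzene, at 5 h or 10 h, in each organ. All groups share the strain, each time has its own vehicle group, and sex, age and the link between a liver and a kidney library of 1 rat were not in the labels.

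The mitochondrial genome encodes the catalytic core of the respiratory chain, while the nuclear genome encodes most of the remaining subunits. Its strands are transcribed as long precursors that are cut apart, largely at the tRNAs between the coding sequences, and most of the mRNAs then receive a poly(A) tail, which is the handle the poly-A-enriched libraries used here select. Co1, Co2 and Co3 encode the core subunits of cytochrome c oxidase (complex IV), which passes electrons to oxygen. Atp6 and Atp8 encode membrane subunits of ATP synthase (complex V), share a transcript and have overlapping reading frames. Cytb encodes cytochrome b of complex III, which passes electrons on to cytochrome c. Kidney tubule cells and hepatocytes are both rich in mitochondria.

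Total estimated counts lay between 13789055 and 28308155 in liver and between 16981846 and 24118479 in kidney. Transcripts at least 16-fold higher in 1 organ, chosen in vehicle libraries collected at the time not under check, took 41.1 to 48.8% (liver-enriched) of counts in liver libraries and 12.9 to 14.5% (kidney-enriched) in kidney libraries. In kidney libraries the liver-enriched share was 0.228 to 0.563%, except in replicate 4 of the 5 h vehicle group, where it was 2.09%. Replicate 8 of the kidney 5 h bromobenzene group had the fewest detected transcripts of the kidney libraries, 21220 against 22527 in the next. Kidney results to which these libraries contribute most are given with and without them. By the library numbers in the titles, the first run in each organ lists the groups in blocks and the second lists them in mixed order. The first run holds, in each organ, 5 of the 8 vehicle and 2 of the 8 bromobenzene libraries at 5 h, and 6 and 5 at 10 h. The labels do not call the runs batches, but values within each are given because groups were spread unevenly over them.

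The 6 transcripts together took 3.08 to 5.43% of all estimated counts in liver (median 4.22%, n = 32) and 9.16 to 13.1% in kidney (median 10.6%, n = 32), where the highest share without the libraries that stood apart was 11.6%. No liver library reached the lowest kidney library. In liver, the 10 most abundant other transcripts took 18.9 to 23.5% of counts, and in kidney 6.50 to 8.55%. In TPM, a level per length whose sum over all transcripts is 1000000 in each library, Co1 ranked 1 to 3 and Atp6 ranked 1 to 2 among all transcripts of every kidney library. In liver Co1 ranked 2 to 11, and Cytb, the lowest of the 6 in 31 of 32 libraries, ranked 16 to 29. In bulk tissue, fewer cells of a type and less RNA per cell cannot be told apart, and this holds for every level below.

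**Figure D1:**
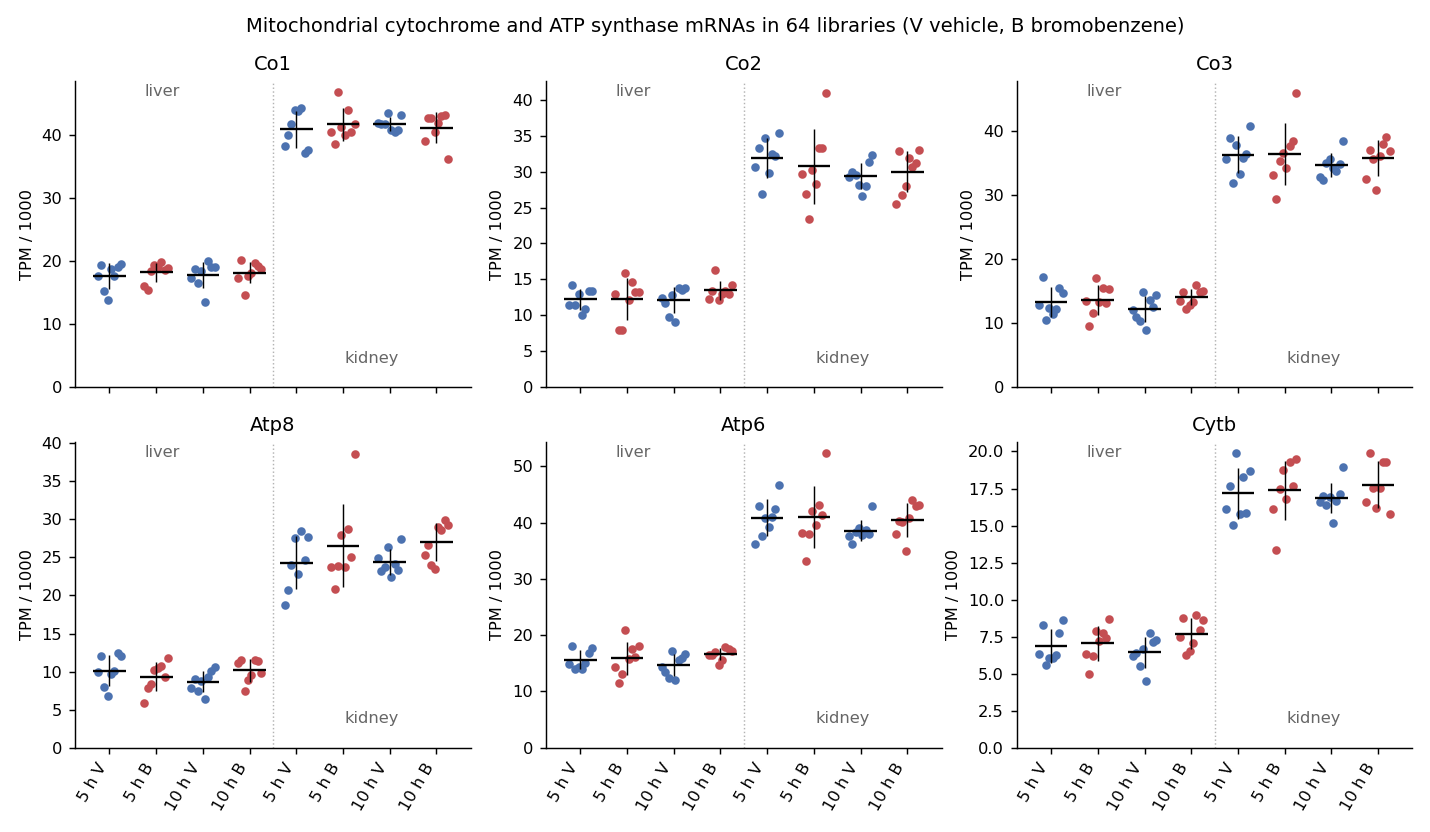
TPM (divided by 1000, vertical axis) of each transcript in each of the 64 libraries, by organ, time and agent (V vehicle, blue; B bromobenzene, red), with points for libraries, horizontal lines for group means and vertical lines for 1 SD (n = 8). For all 6 transcripts the kidney vehicle points lie above the liver vehicle points, and the red and blue points of 1 organ and time overlap.

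Among the complex IV mRNAs, Co1 was the most abundant. In vehicle liver its TPM ran from 13811 through a median of 18218 to 19459 at 5 h, and from 13488 through 18515 to 19932 at 10 h. In vehicle kidney it ran from 37098 through 40842 to 44277 at 5 h and from 40492 through 41755 to 43392 at 10 h. Every vehicle kidney library therefore lay above every vehicle liver library at both times. How many of all transcripts were free of overlap between the organs was not counted, here or for the members below.

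Co2 encodes the subunit that takes electrons from cytochrome c. Its TPM in vehicle liver ran from 10103 through 12237 to 14193 at 5 h, and in vehicle kidney from 26945 through 32358 to 35335. At 10 h it ran from 9064 through 12673 to 13801 in liver and from 26599.5 through 29328 to 32360.1 in kidney. The organs did not overlap at either time. Co3 encodes the core subunit beside Co1 and Co2. Its TPM ran from 10465 through 12593 to 17279 in vehicle liver at 5 h and from 31942 through 36143 to 40746 in vehicle kidney. Neither did its organs overlap, at 5 h or at 10 h, when its highest liver value was 14868 and its lowest kidney value 32306.

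Of the ATP synthase mRNAs, Atp6, the subunit that forms part of the proton path, ran from 13952 through 15024 to 18070.2 TPM in vehicle liver at 5 h and from 36282 through 40926 to 46605 in vehicle kidney. Atp8, a small subunit of the stator region, ran from 6853 through 10024 to 12505 TPM in vehicle liver at 5 h and from 18730.3 through 24309.7 to 28466 in kidney. At 10 h the lowest kidney values, 36213 for Atp6 and 22455 for Atp8, lay above the highest liver values, 17204 and 10623. Cytb ran from 5607 through 6273 to 8608 TPM in vehicle liver at 5 h and from 15056 through 16907 to 19898 in vehicle kidney, and was the lowest of the 6 in TPM in both.

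The order of the 6 was similar but not equal in the organs. In liver, Co1 exceeded Atp6 in 29 of 32 libraries, Atp6 exceeded Co3 in 32 of 32, and Co2 exceeded Atp8 in 31 of 32. Co3 and Co2 were neighbours that did not separate, with Co3 above Co2 in 23 of 32 liver libraries. In kidney, Co1 and Atp6 did not separate: Co1 was above Atp6 in 24 of 32 libraries, and in the 5 h vehicle group the mean log2 ratio was 0.00 ± 0.18 (SD, n = 8), with Atp6 above Co1 in only 3 of 8 libraries although its median was higher. Co3 exceeded Co2 in every kidney library.

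Vehicle kidney was compared with vehicle liver in 1 edgeR quasi-likelihood fit of all 64 libraries with Benjamini-Hochberg adjustment over 20818 transcripts, a transcript being called at an adjusted p under 0.05. All 6 transcripts were higher in kidney and called at both times, but this was common: 70.3% of all transcripts tested were called at 5 h and 72.7% at 10 h, and 39.2% and 40.6% were called as higher. At 5 h the log2 difference ran from 0.37 ± 0.08 (SE) for Co1 to 0.60 ± 0.12 for Co3, or 1.29-fold to 1.52-fold, with adjusted p from 7.7e-06 to 0.0024 (edgeR). At 10 h it ran from 0.28 ± 0.08 for Co1 to 0.57 ± 0.13 for Atp8, or 1.21-fold to 1.48-fold, with adjusted p from 4.2e-05 to 0.028 (edgeR). For each transcript and time, 8 of 8 kidney libraries lay above the liver median. Without the 2 kidney libraries that stood apart, the 5 h differences ran from 0.345 to 0.58 and 6 of 6 were called, beside 69.6% of all transcripts. The fit treats the 64 libraries as independent although 32 rats gave them, so the dependence between the organs of a rat is not in these p-values.

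The size of that difference depended on the scaling. The fit used TMM factors, which set the bulk of transcripts equal and differed by organ (mean log2 factor 0.49 in kidney and -0.49 in liver). On these TMM-scaled counts per 1000000 (CPM), the organs were free of overlap only for Co3 and Atp6 at 5 h and for Co1, Co3, Atp8 and Cytb at 10 h. The share of all transcripts free of overlap on this scale was not counted. Scaled by library totals alone, the same counts differed by 2.51-fold to 2.94-fold at 5 h and by 2.43-fold to 2.97-fold at 10 h, and mean TPM by 2.32-fold to 2.73-fold and 2.35-fold to 2.84-fold. The median of all transcripts moved with the scaling, from 0.12 under TMM to 1.08 under totals at 5 h (0.15 to 1.16 at 10 h, log2). Relative to that median the 6 lay 0.25 to 0.48 higher at 5 h and 0.12 to 0.42 higher at 10 h under TMM, and 0.25 to 0.48 and 0.13 to 0.42 under totals. On log2(TPM + 1) they lay 0.61 to 0.85 and 0.55 to 0.83 above the median of that scale. Within the first run alone 6 of 6 were called at both times, beside 63.1% of all transcripts at 5 h and 68.1% at 10 h. In the second run alone, with 3 libraries a group at 5 h and 2 at 10 h, 2 of 6 and 0 of 6 were called, beside 54.3% and 48.4% of all transcripts, with log2 differences of 0.18 to 0.51 and 0.24 to 0.54.

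**Figure D2:**
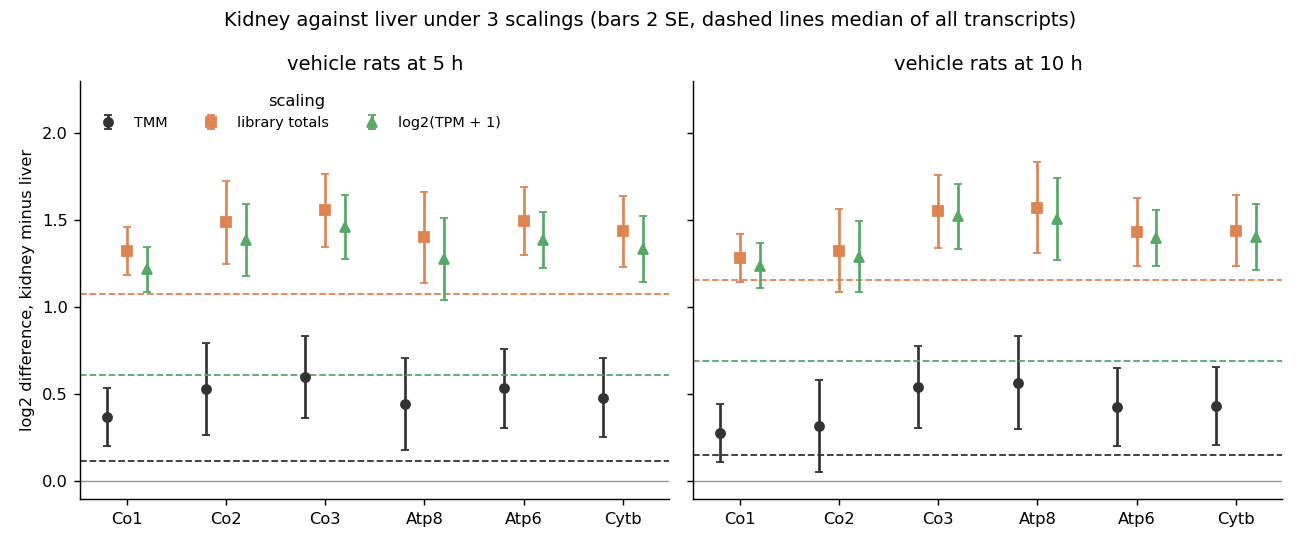
Log2 difference between vehicle kidney and vehicle liver (vertical axis) for the 6 transcripts at 5 h and 10 h under TMM scaling, library totals alone and log2(TPM + 1), with bars of 2 SE and dashed lines for the median of all transcripts under the scaling of the same colour. The points lie above 0 and above their own dashed line in all cases, from 0.28 to 0.60 under TMM and from 1.28 to 1.57 under library totals.

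Bromobenzene was compared with vehicle within each organ and time, in 1 edgeR quasi-likelihood fit of the 32 libraries of an organ. None of the 6 transcripts was called in any of the 4 comparisons (0 of 6 each). Of all transcripts tested, 2.78% were called in liver at 5 h, 11.2% in liver at 10 h, 0.375% in kidney at 5 h and 0.625% in kidney at 10 h. No member had an unadjusted p under 0.05 (edgeR) in any of them. Of all transcripts tested, 2286 of 17535 did in liver at 5 h and 4236 of 17535 in liver at 10 h. In kidney 2806 of 20004 did at 5 h and 2025 of 20004 at 10 h. DESeq2 called 0 of 6 in each comparison, beside 3.84%, 13.7%, 1.65% and 1.51% of all transcripts in the same order.

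In liver at 5 h, Co1 ran from 16133 through 18809 to 21483 TMM-scaled CPM with vehicle, and from 15806 through 20475 to 26156 with bromobenzene. The groups overlapped, with 5 of 8 bromobenzene libraries above the vehicle median, and the log2 change was 0.11 ± 0.09 (SE, edgeR adjusted p = 0.71). Atp8 ran from 363 through 475 to 662 CPM with vehicle and from 222 through 499 to 624 with bromobenzene, a log2 change of -0.07 ± 0.15 (edgeR adjusted p = 0.92). The 6 changes lay between these values, and the 95% intervals of the fold reached from 0.768 to 1.296 across the 6. Within the first run alone, with 2 bromobenzene and 5 vehicle libraries, the 6 values ran from -0.57 to -0.11, so that the sign of all but Atp8 turned. Within the second run they ran from -0.13 to 0.13. The runs called 0 and 13 of all transcripts tested, so the members' counts of 0 of 6 in them say nothing about the members.

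In liver at 10 h, where the share of transcripts called was highest, Cytb had the highest value of the 6. It ran from 3405 through 4958 to 5801 CPM with vehicle and from 4689 through 5467 to 6597 with bromobenzene. The groups overlapped, with 6 of 8 bromobenzene libraries above the vehicle median, and the log2 change was 0.19 ± 0.13 (SE, edgeR adjusted p = 0.38). Co1 had the lowest value, -0.04 ± 0.09 (edgeR adjusted p = 0.87), which took the other sign under library totals (0.02) and on log2(TPM + 1) (0.03). The 95% intervals of the fold reached from 0.857 to 1.40 across the 6. Within the first run the values ran from -0.06 to 0.23 and within the second from -0.04 to 0.22.

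In kidney at 5 h, Co2 ran from 10522 through 12805 to 15213 CPM with vehicle and from 8904 through 12212 to 17597 with bromobenzene. The bromobenzene range enclosed the vehicle range only through replicate 8, without which its highest value was 13839.5, and the log2 change was -0.08 ± 0.10 (SE, edgeR adjusted p = 0.75). Across the 6 the change ran from -0.08 for Co2 to 0.05 for Atp8, with 95% intervals of the fold from 0.821 to 1.202. Without replicate 4 of the vehicle group and replicate 8 of the bromobenzene group, the 2 libraries that stood apart, it ran from -0.15 to -0.009 (Atp8) and 0 of 6 were called, beside 1.79% of all transcripts. Within the first run it ran from -0.29 to -0.13 and within the second from -0.06 to 0.11.

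In kidney at 10 h, Atp8 ran from 1078 through 1182 to 1510.4 CPM with vehicle and from 1149.8 through 1417 to 1585 with bromobenzene. The groups overlapped, with 6 of 8 bromobenzene libraries above the vehicle median, and the log2 change was 0.20 ± 0.11 (SE, unadjusted p = 0.072, edgeR adjusted p = 0.55). The other 5 ran from 0.03 for Co1, whose sign turned under library totals (-0.002) and on log2(TPM + 1) (-0.02), to 0.13 for Atp6 and Cytb. The 95% intervals of the fold reached from 0.923 to 1.33 across the 6. Within the first run the values ran from 0.03 to 0.14 and within the second from -0.01 to 0.21.

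As a description of the 6 beside all transcripts, the median log2 change was 0.09 against 0.005 in liver at 5 h and 0.12 against 0.011 in liver at 10 h. In kidney it was -0.02 against 0.004 at 5 h and 0.11 against 0.005 at 10 h. The intervals above leave room for changes of either sign, so a p above the threshold does not show that the levels were equal.

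**Figure D3:**
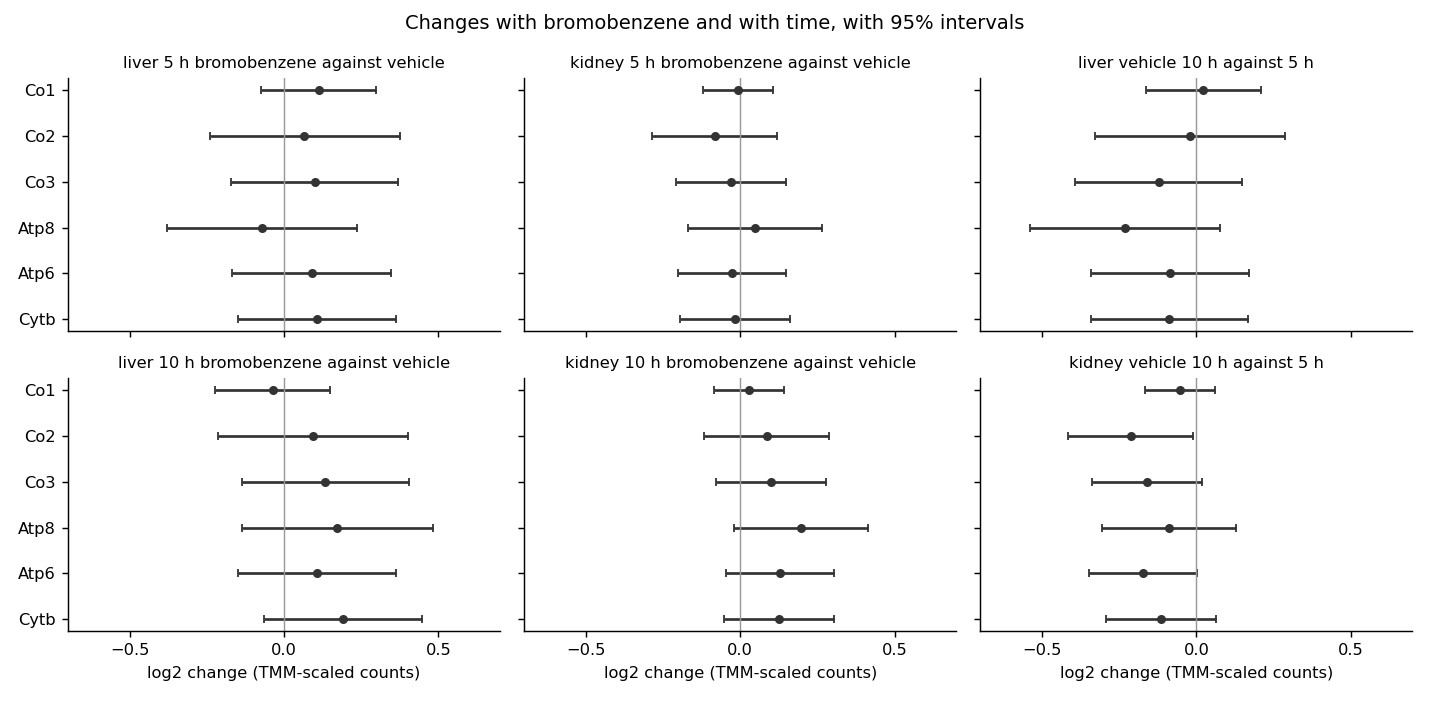
Log2 change on TMM-scaled counts (horizontal axis) of the 6 transcripts in 6 comparisons within an organ, with points for estimates and bars for 95% intervals. For bromobenzene against vehicle each bar crosses 0, and the estimates run from -0.08 to 0.20. For vehicle at 10 h against 5 h in kidney the bar of Co2 (estimate -0.21) lies below 0 before adjustment for the number of transcripts.

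The response at 10 h minus the response at 5 h was tested in each organ as an interaction. Of the 6, 0 were called in liver (3.46% of all transcripts called) and 0 in kidney (0.135% called). The response of kidney minus that of liver was tested in the fit of all 64 libraries, with 0 of 6 called at 5 h (1.21% called) and 0 of 6 at 10 h (4.99% called). The smallest adjusted p of a member over these 4 tests was 0.63 (edgeR). No member had an unadjusted p under 0.05 in any of them. Of all transcripts, 2825 of 17535 did for the liver interaction and 1923 of 20004 for the kidney interaction. For kidney minus liver, 2587 of 20818 did at 5 h and 3383 of 20818 at 10 h.

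Among vehicle rats, 10 h was compared with 5 h within each organ. In liver 0 of 6 were called (9.32% of all transcripts called), with log2 changes from -0.23 ± 0.15 (SE) for Atp8 to 0.02 ± 0.09 for Co1. In kidney 0 of 6 were called (5.68% called), and the 6 values ran from -0.21 for Co2 to -0.05 for Co1. Co2 ran from 10522 through 12805 to 15213 CPM at 5 h and from 10258 through 11349 to 13426 at 10 h. The groups overlapped, with 1 of 8 libraries at 10 h above the 5 h median, and the log2 change was -0.21 ± 0.10 (unadjusted p = 0.038, edgeR adjusted p = 0.22). Atp6 differed by -0.17 ± 0.09 (unadjusted p = 0.0497, edgeR adjusted p = 0.25). Of all transcripts in this kidney comparison, 4026 of 20004 had an unadjusted p under 0.05 (edgeR). Without replicate 4 of the kidney 5 h vehicle group and replicate 8 of the 5 h bromobenzene group, the 6 values ran from -0.19 to -0.03 and 0 of 6 were called, beside 6.18% of all transcripts. On log2(TPM + 1) the values for Co1 and Atp8 took the other sign, 0.03 and 0.02.

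Within a library the 6 transcripts varied together to different degrees. Deviations of log2 CPM from the group mean correlated with the mean of the other 5 at Pearson r = 0.93 for Co3, Atp6 and Cytb in liver (32 libraries) and at 0.635 for Atp8. In kidney r was 0.93 for Co3 and Atp6 and 0.55 for Co1, and without the libraries that stood apart 0.90 for Co3, 0.93 for Atp6 and 0.49 for Co1. These values are descriptions, since the transcripts share library and depth. The spread within groups was lowest for Co1 (SD of log2 CPM 0.17 in liver and 0.102 in kidney) and highest for Atp8 (0.32 and 0.22). The median SD of the 6, 0.26 in liver and 0.18 in kidney, lay near that of all transcripts at 1000 or more CPM, 0.25 and 0.17. Those transcripts include the members themselves, except Atp8 in liver (mean 456 CPM). Over transcripts at 5 or more CPM the median SD was lower, 0.22 in liver and 0.157 in kidney. Without the kidney libraries that stood apart, Co1 had 0.098 and Atp8 0.19, and the median of the 6 was 0.16.

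Ratios of estimated counts within a library need no scaling between libraries. Of the 15 pairs, Co3/Atp6 was the tightest, with a within-group SD of the log2 ratio of 0.05 in kidney and 0.09 in liver. In kidney, Co1/Atp8 and Co1/Co2 were the widest, at 0.198 and 0.19. Without the libraries that stood apart these kidney SDs were 0.05 for Co3/Atp6, 0.18 (Co1/Atp8) and 0.18 (Co1/Co2). Atp8/Atp6, which share a transcript, had 0.26 in liver and 0.13 in kidney. In liver Co2/Atp8 was the widest, at 0.35. Co1/Co2 reached 2.69 in replicate 3 of the liver 5 h bromobenzene group and 1.32 in replicate 3 of the liver 10 h bromobenzene group, around a liver mean of 2.02.

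The ratio with the clearest difference between agents was Co1/Cytb in liver at 10 h. Its log2 value ran from 1.88 through 1.995 to 2.09 with vehicle and from 1.64 through 1.73 to 1.94 with bromobenzene. Of the bromobenzene libraries, 7 of 8 lay outside the vehicle range, so the groups overlapped in few libraries, with means of 1.99 ± 0.08 (SD, n = 8) and 1.76 ± 0.10 (SD, n = 8). The difference was -0.23, or -2.52 in units of the pooled SD. Within the first run it was -0.22 (5 bromobenzene and 6 vehicle libraries) and within the second -0.22 (3 and 2). At 5 h in liver it was 0.02, in kidney 0.015 at 5 h and -0.10 at 10 h. This pair was chosen after its values were seen, as the most separated of 60 combinations of pair, organ and time, so no test is given. The values within the runs come from those same libraries and are no separate check. Of the 60, 5 differed by more than 1 pooled SD once rounded to 2 decimals, and 0 were free of overlap. All 5 included Co1, which by the order of listing was always the numerator, and were lower with bromobenzene at 10 h. Co1/Atp6 in liver and Co2/Atp8 in kidney, both at 10 h, stood on that cutoff at -1.0. Co2/Atp8 does not include Co1, so the presence of Co1 in all 5 depends on the cutoff. Of the 5, those of 1 organ share the same Co1 counts and libraries, so the 5 are not separate results.

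**Figure D4:**
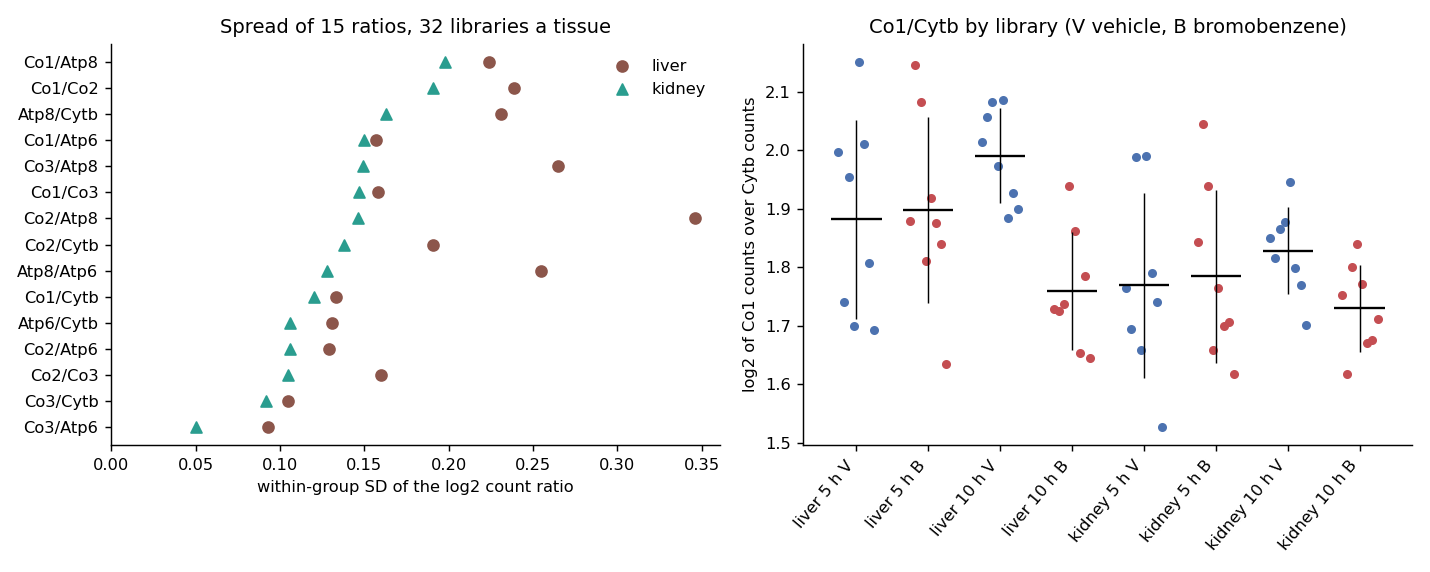
Left, the within-group SD of the log2 count ratio (horizontal axis) for the 15 pairs in liver (circles) and kidney (triangles), 32 libraries each. Right, the log2 Co1/Cytb count ratio of each library by group (V vehicle, B bromobenzene), with group means and 1 SD. Co3/Atp6 has the smallest SD in both organs, and in liver at 10 h the bromobenzene mean is 1.76 against 1.99 with vehicle.

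Atp8 needs its own reading because its target is the shortest of the 6. The effective length that the authors' quantification assigned to it was 45.3 to 63.5 nt in liver and 54.2 to 64.3 nt in kidney, so its TPM divides few counts by a short length. Its estimated count was whole (within 0.001) in 25 of 32 liver and 11 of 32 kidney libraries. In the remaining libraries some of its reads were therefore shared out between targets. In kidney the 32 of 32 whole counts of each other member cannot be set against this, because all were 157396 or more. Counts of that size, and most of those in liver, were too large for the printed digits to hold a fraction. Smaller liver counts could hold one and were whole, such as 57160 for Co2 in replicate 3 of the 5 h bromobenzene group. Another was 74151 for Cytb in replicate 1 of the 10 h bromobenzene group. Atp8 had a median of 7.97 counts per 100 Atp6 counts in liver and 8.17 in kidney. The lowest ratio, 4.15, came from replicate 1 of the liver 5 h bromobenzene group, which had the longest fragments (mean 235 nt, implied by the effective lengths). The liver libraries with the next longest fragments, replicate 8 of the 10 h bromobenzene group (232.0 nt) and replicate 1 of the 10 h vehicle group (229 nt), had 6.52 and 5.97. Among libraries with shorter fragments, replicate 3 of the liver 10 h bromobenzene group had 5.78 (199 nt). Replicate 4 of the liver 5 h vehicle group had 6.09 (204.5 nt), and replicate 2 of the kidney 5 h vehicle group 6.08 (212.9 nt). A relation between this ratio and fragment length was not tested. The effective length of Atp8 did not pass an exact 2-sided permutation test between agents in any organ and time (n = 8 each, adjusted p = 0.799 in all 4).

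**Figure D5:**
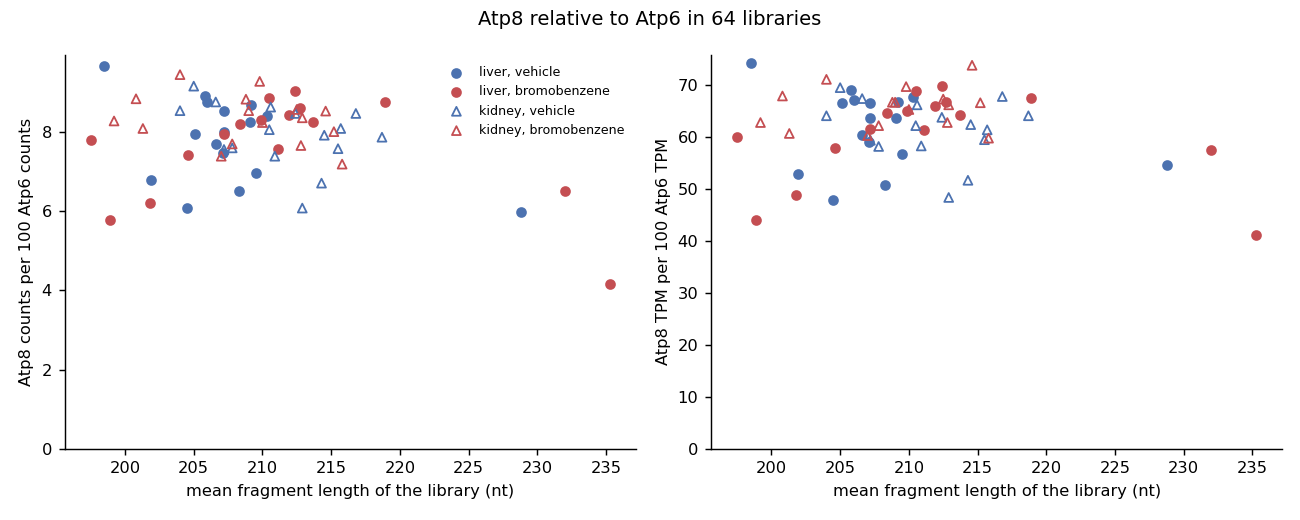
Atp8 per 100 Atp6 in estimated counts (left) and in TPM (right) against the mean fragment length implied by the effective lengths (nt, horizontal axes), 1 point a library, by organ and agent. Most points lie between 6 and 10 counts per 100, and the lowest, at 4.15, is the liver library with the longest fragments.

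By the likeness of their deviations from the group means to the mean of the 6, the transcripts most alike were ENSRNOT00000042928.3 (r = 0.87, 32 libraries) and ENSRNOT00000040993.4 (r = 0.84) in liver. The same 2 led in kidney, with r = 0.86 and 0.87, or 0.80 and 0.82 without the libraries that stood apart. They were found among 10077 liver and 13125 kidney transcripts at a mean of 5 or more CPM, and the files pair neither with a name.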

How the data were processed

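The 64 deposited tables hold, per transcript, estimated counts, TPM (sums of 1000000 per library) and the effective length in nt, which is the target length corrected for fragment size. The authors made them with kallisto 0.42.4 against Rnor 6.0, per the submitters' processing notes, from poly-A-enriched stranded libraries read as 150-nt pairs, per the labels' protocols, whose extraction text speaks of cultured cells although the labels name liver and kidney. No deposited table holds sequences of these transcripts, and none are printed.

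Estimated counts were rounded to whole numbers. Low transcripts were removed with filterByExpr (minimum count 10 and minimum total 15). TMM factors were applied, and the robust quasi-likelihood test of edgeR 4.0.16 (R 4.3.3) was run in 1 fit per organ of 32 libraries (28 residual degrees of freedom) and 1 fit of all 64 (56). P-values were adjusted by Benjamini-Hochberg over all transcripts tested, and 95% intervals use those degrees of freedom. DESeq2 1.42.0 and limma 3.58.1 on log2(TPM + 1) were alternatives. All 6 transcripts passed the filter in all fits. Group labels came from the samples' titles and characteristics. No library pair within a group agreed within counting noise (224 pairs, lowest chi-square per degree of freedom 10.3). The design text gives 32 rats and 8 replicates per condition and time, so the 8 libraries of a group were taken as separate rats.

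The members, the lists and the comparisons were chosen with earlier results of these data known. Named transcripts were the 6 members and the 2 most alike in each organ. Pathway and cell marker lists could not be tested, because 0 of 31715 identifiers matched a symbol.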

Additional observations from a re-analysis of the deposited data

Results flagged for a closer look

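Among 48 sets of 8 libraries (6 transcripts in 8 groups), 2 held a library far from the others by Dixon's test, where chance flags about 1 in 20. Atp8 reached 38568 TPM in replicate 8 of the kidney 5 h bromobenzene group, against a group median of 24448. That library also had the highest Co2, Co3, Atp6 and Cytb TPM of its group and the fewest detected transcripts in kidney (21220). Atp6 reached 42867 TPM in replicate 8 of the kidney 10 h vehicle group, against a group median of 38152. The part of library quality in these values was not tested.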

How the results depend on the processing

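No paired analysis was possible because no label ties a liver library to a kidney library or a treated rat to a control. Libraries whose title numbers differ by 32 share agent and time at all 32 positions, but order alone was not used to pair them. In the comparisons of agents, times and responses 0 of 6 were called under each setting run, 64 fits that left out 1 library included (fits within an organ only). Some settings called 0 of all transcripts tested, so 0 of 6 there says nothing about the members. For bromobenzene against vehicle these were the second run alone in kidney at 5 h and 10 h, and the first run alone in liver at 5 h. Kidney at 5 h fitted with only its own groups was another. For the response at 10 h minus that at 5 h it was the second run alone, in both organs. For kidney minus liver at 5 h it was the first run alone. The organ difference fell to 2 of 6 called at 5 h and 0 of 6 at 10 h in the second run alone (54.3% and 48.4% of all transcripts), where all 6 stayed higher in kidney and fewer libraries entered by construction.

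Values near 0 changed sign under some settings, none of them called, and the cause was not tested. In liver at 5 h (bromobenzene minus vehicle, log2), the first run alone gave Co1 -0.109, Co2 -0.251, Co3 -0.187, Atp6 -0.265 and Cytb -0.204, the run as a covariate gave Atp6 -0.005 and Cytb -0.01, and limma with a pseudocount of 1 or 0.1 gave Co2 -0.03. In liver at 10 h, Co1 was 0.017 under library totals, 0.021 under totals without the members and 0.034 with limma at both pseudocounts, and Co2 was -0.042 in the second run.

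In kidney at 5 h, Co1 was 0.023 and 0.024 under those totals, 0.029 with limma and 0.111 in the second run. Co3 was 0.029 in the second run. Atp8 was -0.048 with the run as a covariate, -0.13 in the first run and -0.009 without both libraries that stood apart. Atp6 was 0.001 and 0.003 under the totals. Cytb was 0.012 and 0.013 under the totals, 0.013 with limma and 0.067 in the second run. In kidney at 10 h Co1 was -0.002 under totals, -0.024 with limma and -0.007 in the second run.

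Between vehicle times, liver Co1 was -0.003 and Co2 0.084 in the second run. Kidney Co1 was 0.034 and Atp8 0.018 with limma, and Co1 was 0.062 and Cytb 0.013 in the second run. Differences of medians of the effective length were -0.23 in liver and -0.11 in kidney at 10 h, against 0.61 and 0.30 for means.

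Leaving out 1 library turned the sign of 12 values. In liver at 5 h the ranges were -0.054 to 0.149 (Co2), -0.01 to 0.171 (Co3), -0.144 to 0.031 (Atp8) and -0.036 to 0.158 (Atp6), and at 10 h -0.078 to 0.001 (Co1). Between liver vehicle times they were -0.006 to 0.074 (Co1) and -0.064 to 0.031 (Co2). In kidney at 5 h they were -0.043 to 0.023 (Co1), -0.106 to 0.02 (Co3), -0.045 to 0.095 (Atp8), -0.103 to 0.024 (Atp6) and -0.06 to 0.042 (Cytb). The part of depth and target length in the spread was not tested.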
